A study of Mus musculus with 6 samples.

Results

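The genes described here are 10 genes of major histocompatibility complex (MHC) class I antigen presentation: H2-K1, H2-D1, B2m, Tap1, Tap2, Tapbp, Psmb8, Psmb9, Psmb10 and Nlrc5. They were taken by gene symbol from an RNA sequencing table of 36172 genes in tumor-derived organoids, which are cultures of tumor epithelial cells grown in a gel in 3 dimensions. All 10 symbols were listed. The values are rpkm, reads per kilobase of transcript scaled to mapped reads, and the table holds no value below 1 rpkm. Of the 10 genes, 5 (H2-K1, H2-D1, B2m, Tapbp and Psmb10) reached the 4 rpkm in at least 1 library that was needed to enter the main test, 4 (Tap1, Tap2, Psmb8 and Psmb9) lay between 1 and 4 rpkm, and Nlrc5 was listed at the floor of 1 rpkm in all 6 libraries. Organoids came from intestinal tumors of C57BL/6 mice aged 15 to 20 weeks. Every mouse carried the Apc Δ716 allele, a truncation at codon 716, and the tumors had lost the other Apc allele. Organoids of 2 mice each represented the 3 genotypes, which are written Trp53 +/+, flox/flox and R270H/R270H. In this study the flox allele is a missense allele behind a stop cassette, which is functionally null until Cre removes the cassette. The R270H/R270H cells express the mutant p53 after tamoxifen activated villin-CreER, a Cre recombinase driven by a promoter of intestinal epithelium. In the study's naming, flox/flox becomes R270H/R270H on tamoxifen. These genotypes thus also differ in tamoxifen and Cre activity, which cannot be told apart from the mutant protein here. Whether the +/+ mice also received tamoxifen is not given in the sources used here. The comparisons ask whether loss of p53 and expression of the mutant protein go with different levels of these genes.

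MHC class I molecules display peptides from inside the cell to CD8+ T cells. A peptide is cut by the proteasome, whose catalytic subunits can be replaced by the immunoproteasome subunits Psmb8, Psmb9 and Psmb10, and is carried into the endoplasmic reticulum by the transporter of Tap1 and Tap2. There tapasin, the product of Tapbp, helps to load it on a heavy chain such as H2-K1 or H2-D1 that is paired with the light chain beta-2-microglobulin, the product of B2m. Nlrc5 is a transactivator of class I genes, and interferons are the best known inducers of the whole pathway in epithelial cells.

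The Trp53 levels matched the genotype labels. Trp53 (chr11:69580359-69591873) was at 75.9 and 74.4 rpkm in the +/+ libraries, at 1.73 and 2.48 rpkm in the flox/flox libraries, and at 72.8 and 82.7 rpkm in the R270H/R270H libraries. The flox/flox libraries differed from each other more than those of the other genotypes, with a median SD over 10042 genes of 0.247 on the log2 scale against 0.0463 in +/+ and 0.0621 in R270H/R270H. All 7 epithelial markers were above the floor in every library. Their summed level was 2693 to 2731 rpkm in +/+, 4019 to 4269 rpkm in flox/flox and 2222 to 2369 rpkm in R270H/R270H. Of 13 leukocyte markers in the table, 11 (Ptprc, Cd3e, Itgam and Csf1r among them) were at the floor in all 6 libraries, and the list summed to 14.1 to 26.0 rpkm, in which Cd68 and Laptm5 alone exceeded the floor. Of 5 endothelial markers, Pecam1, Kdr and Tie1 were at the floor throughout. The list summed to 15.9 and 16.3 rpkm in +/+, 5 and 27.7 rpkm in flox/flox and 5.13 and 5.20 rpkm in R270H/R270H. In this and the other marker sums, a gene at the floor counts as 1 rpkm. The endothelial sum of 5 rpkm in flox/flox replicate 1 thus consists of floor values alone. Of 9 fibroblast and muscle markers, 6 exceeded the floor in flox/flox replicate 2 and 1 or 2 in each other library. The list summed to 57.95 to 76.96 rpkm in +/+, 40.4 and 79.6 rpkm in flox/flox and 293 to 315 rpkm in R270H/R270H, where Vim made up most of it. The table gives no read counts. Steps between the values of short RNA genes gave about 44.2 to 48.5 M reads per library. The value of flox/flox replicate 1 rested on 8 genes. The fit to such steps, as a mean cosine that is 1 for an exact fit, was 0.51 in R270H/R270H replicate 2 and 0.85 in flox/flox replicate 1. The other libraries lay between, so these depths are rough. At 47.0 M reads, 1 rpkm is about 184 reads on the longest Tap1 transcript and 90 reads on that of Psmb8.

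The regulatory sequence of the heavy chain genes H2-K1 and H2-D1 and of B2m is shown first, as a description. Its part in the levels of these genes was not tested, and the promoters of the other heavy chain genes are not described here. RefSeq promoter windows (build GRCm38.p6, 250 bases before to 50 after each start) were matched for 8 of the 10 genes, Tap2 and Nlrc5 excepted. Capitals mark letters that match GAANNGAAA, a core of the interferon-stimulated response element (ISRE), the same core with 1 more A in its first run, or a kappa-B motif, each searched on both strands. The 250 bases before the H2-K1 start lie at chr17:34000348-34000597 on the minus strand.
H2-K1: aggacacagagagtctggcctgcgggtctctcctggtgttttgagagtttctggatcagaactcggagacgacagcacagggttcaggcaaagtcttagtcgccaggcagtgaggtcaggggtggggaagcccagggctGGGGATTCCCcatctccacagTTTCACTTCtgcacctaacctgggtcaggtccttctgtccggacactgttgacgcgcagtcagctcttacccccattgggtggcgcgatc
The stretch that holds both motifs lies at chr17:34000429-34000458 (minus strand) in H2-K1 and at chr17:35262923-35262952 (plus strand) in H2-D1, where it falls in a first exon that GENCODE gives to a longer H2-D1 transcript.
H2-K1 motifs: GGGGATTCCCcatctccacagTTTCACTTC
H2-D1 motifs: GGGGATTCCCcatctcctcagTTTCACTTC
The pair of stretches was identical at 29 of 30 bases, with A18T as the difference, counted from 1 at the 5′ end with the H2-K1 base first. The kappa-B and ISRE letters started 21 bases apart in both genes. Over 190 bases that could be laid side by side without a gap, 166 were identical (87.4%).
The sequence before the B2m start lies at chr2:122147437-122147685 on the plus strand.
B2m: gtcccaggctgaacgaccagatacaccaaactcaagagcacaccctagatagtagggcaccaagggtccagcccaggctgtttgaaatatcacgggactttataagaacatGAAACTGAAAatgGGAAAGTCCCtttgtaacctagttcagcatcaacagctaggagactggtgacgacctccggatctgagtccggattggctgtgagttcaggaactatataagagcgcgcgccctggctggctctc
In B2m the order was reversed, with the ISRE letters before the kappa-B letters. The kappa-B letters were found in B2m, H2-D1 and H2-K1 and in 4.79% of all 32851 windows. GAANNGAAA was found in H2-D1 and H2-K1 and in 7.52% of windows. The longer ISRE core, whose match overlaps none of GAANNGAAA here and which was added after these windows had been read, was found in B2m and in 3.44% of windows. TTCNNNGAA, the gamma-activated site, was found in Psmb8 alone of the 8 genes and in 8.3% of windows. The RefSeq starts of Tap1 and Psmb9 have 225 bases between them and point away from each other, so these genes share a promoter region, and their windows held no match. In GENCODE these genes overlap, with Tap1 from 34187553 on the plus strand and Psmb9 to 34187764 on the minus strand.

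The 2 heavy chain genes and Psmb10 were highest in flox/flox organoids, Tap1 was highest in +/+ organoids, Psmb8 and B2m were highest in R270H/R270H organoids, and Nlrc5 was not detected above the floor in any. The fit was limma on log2(rpkm + 1) over 10042 genes, and a gene was called at a Benjamini-Hochberg adjusted p under 0.05. In flox/flox against +/+, 2 of the 5 tested genes were called higher (H2-D1 and Psmb10), where 4.38% of all tested genes were called higher, and 0 were called lower, where 6.9% of all were. In R270H/R270H against flox/flox, 3 of 5 were called lower (H2-K1, H2-D1 and Psmb10), where 11% of all were, and 0 were called higher, where 13.6% of all were. In R270H/R270H against +/+, 0 of 5 were called by limma, where 5.86% of all tested genes were called higher and 6.36% lower. The unadjusted p was under 0.05 for 0 of the 5 in that comparison (32.0% of all tested genes in either direction), for 4 of the 5, all higher, in flox/flox against +/+ (34.7% of all), and for 3 of the 5, all lower, in R270H/R270H against flox/flox (42.5% of all). The median log2 difference over these 5 genes was 0.53 in flox/flox against +/+, 0.05 in R270H/R270H against +/+ and -0.62 in R270H/R270H against flox/flox, beside medians of -0.02, 0.03 and 0.03 over all tested genes. Both mutant genotypes were set against the same +/+ libraries, and the comparison of R270H/R270H with flox/flox is the test of the difference between them. In whole organoids, fewer cells of a type and less RNA per cell cannot be told apart. The epithelial marker sum was also highest in the flox/flox libraries, and Krt8, Krt18 and Krt19 made up most of it. These keratin genes and Cdx2 were highest in both flox/flox libraries, while Epcam, Cdh1 and Vil1 overlapped with other genotypes. The part of these markers in the results was not tested. No chromosome that holds one of the 10 genes was shifted as a whole by more than 0.12 (log2) in a mutant library against +/+.

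**Figure D1:**
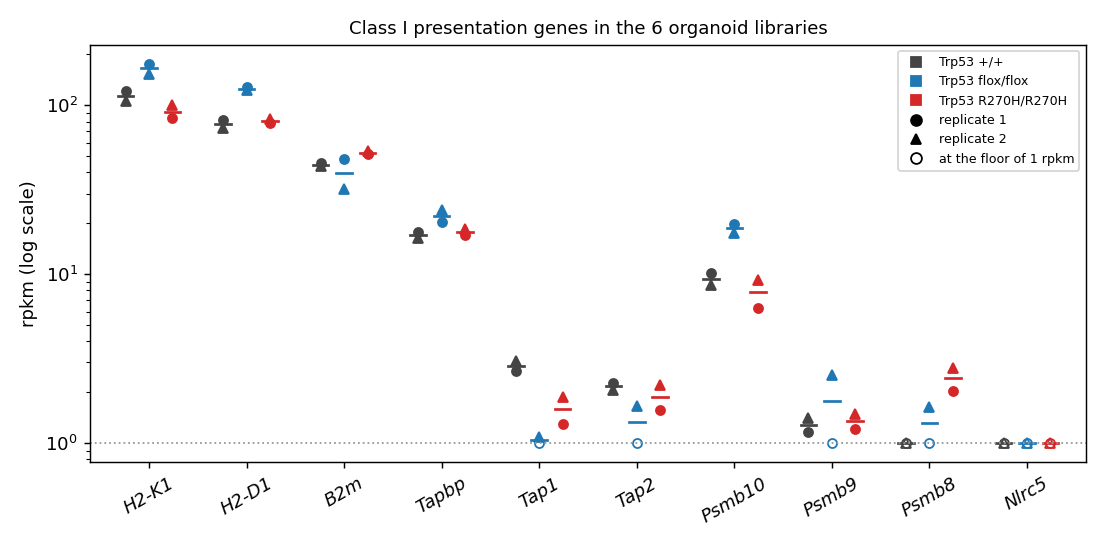
rpkm (log axis) of the 10 class I presentation genes in each of the 6 libraries, colored by Trp53 genotype, with replicate 1 as circles, replicate 2 as triangles and the mean of 2 libraries as a line. Open symbols on the dotted line are at the floor of 1 rpkm. The flox/flox libraries lie above the others in H2-K1, H2-D1, Tapbp and Psmb10 and below them in Tap1.

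The levels spanned from over 100 rpkm to the floor. Averaged over the 6 libraries, H2-K1 stood above 95.5% of the tested genes, H2-D1 above 93.7%, B2m above 84.2%, Tapbp above 62.0% and Psmb10 above 45.2%. In +/+ organoids the order was H2-K1, H2-D1, B2m, Tapbp, Psmb10, Tap1, Tap2 and Psmb9, with Psmb8 and Nlrc5 at the floor, and no neighbours in it overlapped between their 2 libraries. In flox/flox organoids the first 5 kept this order without overlap, and Tap1, Tap2, Psmb8 and Psmb9 overlapped. In R270H/R270H organoids H2-K1 and H2-D1 were closest, since the difference of their means was smaller than the SD of H2-K1. There Psmb8 and Tap2 overlapped, as did Tap1 with Tap2 and with Psmb9.

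H2-K1 (chr17:33996017-34000347, minus strand) encodes a classical class I heavy chain. Its level was 122 and 106 rpkm in +/+, 177 and 154 rpkm in flox/flox and 83.9 and 99.8 rpkm in R270H/R270H. Both flox/flox libraries were above all others and both R270H/R270H libraries below all others. Genes with both flox/flox libraries highest of the 6 made up 19.9% of tested genes, and genes with both R270H/R270H libraries lowest made up 18.7%. The mean was 165 ± 15.9 rpkm (SD, n = 2) in flox/flox and 91.9 ± 11.3 rpkm (SD, n = 2) in R270H/R270H, 1.80-fold apart, against 114 ± 10.8 rpkm (SD, n = 2) in +/+. R270H/R270H was lower than flox/flox by a log2 difference of -0.84 ± 0.15 (SE; limma adjusted p = 0.0193). Against +/+, H2-K1 differed by 0.53 ± 0.15 in flox/flox (limma adjusted p = 0.0746) and by -0.31 ± 0.15 in R270H/R270H (limma adjusted p = 0.216), neither of them called. The difference between R270H/R270H and flox/flox was no longer called on leaving out any 1 of the +/+ and R270H/R270H libraries. In those fits most genes called in the main fit lost their calls too. The difference lay between -0.97 and -0.72 under the alternatives. That of flox/flox from +/+ was 0.44 without flox/flox replicate 1 and 0.63 without flox/flox replicate 2.

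H2-D1 (chr17:35262730-35267499, plus strand), the other classical heavy chain gene in these mice, was at 82.0 and 73.6 rpkm in +/+, 128 and 123 rpkm in flox/flox and 79.0 and 83.4 rpkm in R270H/R270H. Again the flox/flox libraries stood above all others, while the +/+ and R270H/R270H libraries overlapped. The flox/flox mean of 125 ± 3.65 rpkm (SD, n = 2) was 1.61-fold that of +/+ (77.8 ± 5.97 rpkm, SD, n = 2) and 1.54-fold that of R270H/R270H (81.2 ± 3.09 rpkm, SD, n = 2). The log2 difference was 0.68 ± 0.11 (SE) in flox/flox against +/+ (limma adjusted p = 0.0264) and -0.62 ± 0.11 in R270H/R270H against flox/flox (limma adjusted p = 0.0188). R270H/R270H against +/+ gave 0.06 ± 0.11 (limma adjusted p = 0.727). The calls of the rise in flox/flox and of the difference between the mutant genotypes were lost on leaving out any 1 of the +/+ and R270H/R270H libraries. In those fits most genes called in the main fit lost their calls too. Under the alternatives the rise in flox/flox lay between 0.60 and 0.76, and the difference between the mutant genotypes between -0.66 and -0.58. H2-K1 and H2-D1 have close relatives among the H2-Q and H2-T genes, and how the counting dealt with reads that fit several of them is not given in the sources used here, so their values are uncertain to that extent.

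H2-K1 and H2-D1 did not keep a fixed proportion. H2-K1 was at 148% and 145% of H2-D1 in the +/+ libraries, at 138% and 126% in flox/flox and at 106% and 120% in R270H/R270H, with no overlap between genotypes. No test was made of this ratio.

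B2m (chr2:122147686-122153083, plus strand) encodes the light chain that all class I heavy chains need. It was at 45.3 and 43.7 rpkm in +/+, 47.9 and 31.7 rpkm in flox/flox and 51.1 and 53.6 rpkm in R270H/R270H. The R270H/R270H libraries were the highest of the 6, a pattern of 26.5% of tested genes, and the flox/flox libraries lay on both sides of the +/+ libraries. B2m was not called in any comparison, with log2 differences of -0.19 ± 0.20 (SE) in flox/flox against +/+ (limma adjusted p = 0.531), 0.23 ± 0.20 in R270H/R270H against +/+ (limma adjusted p = 0.485) and 0.42 ± 0.20 in R270H/R270H against flox/flox (limma adjusted p = 0.173). Which flox/flox library was used decided the first value. Without flox/flox replicate 1 it was -0.48, and without flox/flox replicate 2 it was 0.10. The difference between R270H/R270H and flox/flox was 0.71 without flox/flox replicate 1 and 0.13 without replicate 2. The difference between R270H/R270H and +/+ stayed at 0.23 when either flox/flox library was left out of the fit. It was called there, but so were most of all tested genes.

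The sum of H2-K1 and H2-D1 was 4.50 and 4.11 times the B2m level in +/+, 6.35 and 8.72 times in flox/flox and 3.19 and 3.42 times in R270H/R270H. The genotypes did not overlap in this ratio of heavy to light chain RNA, with flox/flox highest and R270H/R270H lowest. It is a ratio of rpkm values, compared within each library and not tested.

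**Figure D2:**
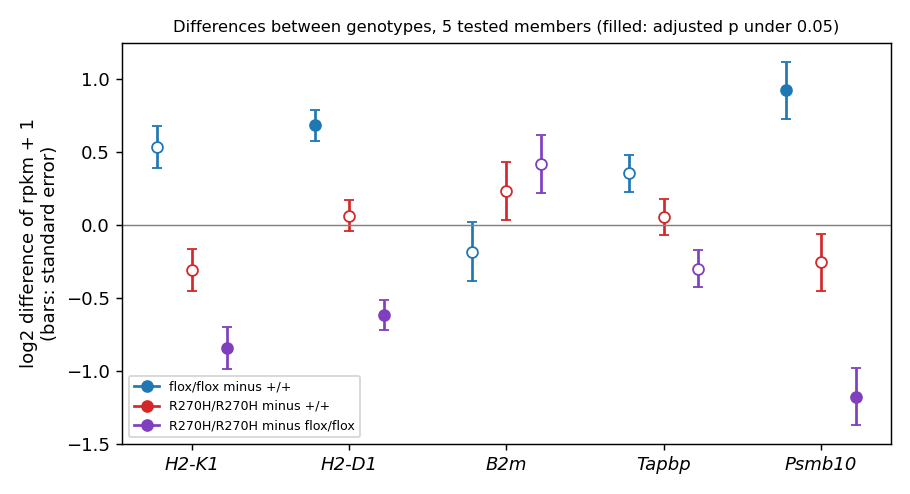
Difference in log2(rpkm + 1) between genotypes for the 5 class I presentation genes that were tested, with the standard error of the limma fit. Filled points had an adjusted p under 0.05: H2-D1 and Psmb10 in flox/flox against +/+, and H2-K1, H2-D1 and Psmb10 in R270H/R270H against flox/flox.

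Tapbp (chr17:33915899-33929292, plus strand), which encodes tapasin, was at 17.8 and 16.5 rpkm in +/+, 20.3 and 24.1 rpkm in flox/flox and 17.1 and 18.5 rpkm in R270H/R270H. The flox/flox libraries were the highest of the 6, and the other genotypes overlapped. The flox/flox mean of 22.2 ± 2.70 rpkm (SD, n = 2) was 1.30-fold that of +/+. The log2 difference of 0.35 ± 0.12 (SE) was not called (limma adjusted p = 0.118), nor was that of -0.30 ± 0.12 between R270H/R270H and flox/flox (limma adjusted p = 0.130). Without flox/flox replicate 1 these differences were 0.47 and -0.42, and without flox/flox replicate 2 they were 0.23 and -0.18.

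Tap1 (chr17:34187553-34197225, plus strand) and Tap2 (chr17:34203527-34216321, plus strand), the subunits of the peptide transporter, were among the least abundant of the 10 genes. Tap1 was at 2.65 and 3.07 rpkm in +/+, at the floor of 1 and at 1.09 rpkm in flox/flox, and at 1.30 and 1.88 rpkm in R270H/R270H. The genotypes did not overlap, with +/+ highest (both +/+ libraries highest in 17.3% of the 12412 genes above 1 rpkm in at least 1 library) and flox/flox lowest (21.5%). The +/+ mean of 2.86 ± 0.294 rpkm (SD, n = 2) was at least 2.74-fold that of flox/flox and 1.80-fold that of R270H/R270H. These genes were fitted in an alternative with all 12412 genes above 1 rpkm, in which the floor compresses differences. In it 2 of the 9 class I presentation genes tested were called lower or higher in flox/flox against +/+ (Tap1 lower, where 7.85% of all were, and H2-D1 higher, where 3.99% were). In R270H/R270H against +/+ they were Tap1 lower (6.99% of all) and Psmb8 higher (8.37% of all). In R270H/R270H against flox/flox, 3 of the 9 were called lower (9.22% of all), the same genes as in the main test, and 0 higher (15.4% of all). Tap1 differed by -0.91 ± 0.13 (SE) in flox/flox (limma adjusted p = 0.0231) and by -0.58 ± 0.13 in R270H/R270H (limma adjusted p = 0.0474), while R270H/R270H against flox/flox gave 0.33 ± 0.13 (limma adjusted p = 0.123).

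The Tap1 call in flox/flox was lost in the fit of only the genotypes compared (limma adjusted p = 0.0588) and with weights for each genotype (0.204). The call in R270H/R270H was lost with a pseudocount of 0.1 (limma adjusted p = 0.0551) or none (0.0567), and with no trend in the fit (0.0584). Each call was also lost on leaving out any 1 of the +/+ and R270H/R270H libraries. The differences there were -0.99 to -0.84 in flox/flox and -0.74 to -0.42 in R270H/R270H. In the main test most called genes lost their calls on leaving out such a library. Cdh5 and Tek, endothelial markers that were above the floor, were at 8.88 and 9.35 rpkm and at 4.003 and 3.944 rpkm in +/+, at 1 and 3.30 rpkm and at 1 and 21.4 rpkm in flox/flox, and at 1.04 and 1 rpkm and at 1.16 and 1.13 rpkm in R270H/R270H. Cd68 was at 10.2 and 9.87 rpkm in +/+, 2.06 and 11.1 rpkm in flox/flox and 2.22 and 2.41 rpkm in R270H/R270H. Like Tap1, these markers were higher in +/+ than in R270H/R270H. They were also higher in flox/flox replicate 2 than in flox/flox replicate 1, where Tap1 differed only as 1.09 rpkm from the floor. Unlike Tap1, Tek and Cd68 were higher in flox/flox replicate 2 than in both +/+ libraries. The part of these markers in the Tap1 result was not tested.

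Tap2 was at 2.27 and 2.06 rpkm in +/+, at the floor of 1 and at 1.66 rpkm in flox/flox, and at 1.57 and 2.19 rpkm in R270H/R270H. The order of the genotype means was that of Tap1, but the genotypes overlapped. No difference was called in the 12412-gene fit, with -0.45 ± 0.18 (SE) in flox/flox against +/+ (limma adjusted p = 0.157), -0.14 ± 0.18 in R270H/R270H against +/+ (limma adjusted p = 0.644) and 0.31 ± 0.18 between the mutant genotypes (limma adjusted p = 0.248).

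The immunoproteasome subunits differed from each other in level and pattern. Psmb10 (chr8:105935735-105938444, minus strand), the subunit that replaces Psmb7, was at 10.2 and 8.60 rpkm in +/+, 19.7 and 17.6 rpkm in flox/flox and 6.32 and 9.26 rpkm in R270H/R270H. The flox/flox libraries were nearly at the same level and above all others, and the remaining genotypes overlapped. The flox/flox mean of 18.7 ± 1.53 rpkm (SD, n = 2) was 1.99-fold that of +/+ (9.38 ± 1.11 rpkm, SD, n = 2) and 2.40-fold that of R270H/R270H (7.79 ± 2.08 rpkm, SD, n = 2). The log2 difference was 0.92 ± 0.20 (SE) in flox/flox against +/+ (limma adjusted p = 0.0456), -1.18 ± 0.20 in R270H/R270H against flox/flox (limma adjusted p = 0.0180) and -0.26 ± 0.20 in R270H/R270H against +/+ (limma adjusted p = 0.426). The call of the rise in flox/flox was lost with the filter of 1 rpkm (limma adjusted p = 0.0535) or a pseudocount of 0.1 (0.0511). This call and that between the mutant genotypes were lost on leaving out any 1 of the +/+ and R270H/R270H libraries. In those fits most genes called in the main fit lost their calls too. Under the alternatives the rise in flox/flox lay between 0.81 and 1.03, and the difference between the mutant genotypes between -1.42 and -0.94.

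Psmb8 (chr17:34197721-34201454, plus strand), which replaces Psmb5, stood at the floor in both +/+ libraries, at 1 and 1.62 rpkm in flox/flox, and at 2.03 and 2.78 rpkm in R270H/R270H. Both R270H/R270H libraries were above all others, which 27.2% of the 12412 genes showed. The R270H/R270H mean of 2.41 ± 0.530 rpkm (SD, n = 2) was at least 2.41-fold that of +/+. In the 12412-gene fit Psmb8 was higher in R270H/R270H than in +/+ by 0.76 ± 0.17 (SE; limma adjusted p = 0.0476), while the differences of 0.56 ± 0.17 from flox/flox (limma adjusted p = 0.0708) and of 0.20 ± 0.17 between flox/flox and +/+ (limma adjusted p = 0.453) were not called. The call was lost with no trend in the fit (limma adjusted p = 0.0569). It was also lost on leaving out any 1 of the +/+ and R270H/R270H libraries, with differences between 0.60 and 0.92. Under the alternatives, the difference from flox/flox lay between 0.37 and 0.90, and it was 0.76 without flox/flox replicate 2.

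Psmb9 (chr17:34181987-34187764, minus strand), which replaces Psmb6 and shares its promoter region with Tap1, was at 1.16 and 1.41 rpkm in +/+, at the floor of 1 and at 2.54 rpkm in flox/flox, and at 1.21 and 1.48 rpkm in R270H/R270H. The flox/flox libraries enclosed all the others. Its differences in the 12412-gene fit were 0.22 ± 0.28 (SE) in flox/flox against +/+ (limma adjusted p = 0.608), 0.03 ± 0.28 in R270H/R270H against +/+ (limma adjusted p = 0.970) and -0.19 ± 0.28 between the mutant genotypes (limma adjusted p = 0.640). The difference in flox/flox against +/+ was 0.63 without flox/flox replicate 1 and -0.19 without flox/flox replicate 2. The genotype means of Tap1 and Psmb9 thus differed in order, with 225 bases between their RefSeq starts. The place of flox/flox in the Psmb9 order turned on which flox/flox library was used.

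The constitutive subunits were far more abundant than the immunoproteasome subunits. Psmb5 was at 66.0 and 64.0 rpkm in +/+, 146 and 91.4 rpkm in flox/flox and 60.5 and 73.5 rpkm in R270H/R270H. Psmb6 was at 109 and 105, 173 and 128, and 97.5 and 112 rpkm in the same order. Psmb7 was at 37.1 and 37.8, 63.6 and 42.4, and 41.4 and 38.0 rpkm. All 3 were highest in both flox/flox libraries, and none was called in any comparison, with the lowest limma adjusted p at 0.0687 for Psmb5 between the mutant genotypes. Psmb10 reached 27.4% and 22.7% of Psmb7 in +/+, 31.0% and 41.5% in flox/flox and 15.3% and 24.3% in R270H/R270H, so that the flox/flox libraries stayed highest after division by Psmb7. Psmb8 reached 3.36% and 3.79% of Psmb5 in R270H/R270H and at most 1.51% and 1.56% in +/+, with at most 0.686% and with 1.78% in flox/flox. Psmb9 lay between at most 0.578% and 1.99% of Psmb6, and both of these extremes were flox/flox libraries.

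**Figure D3:**
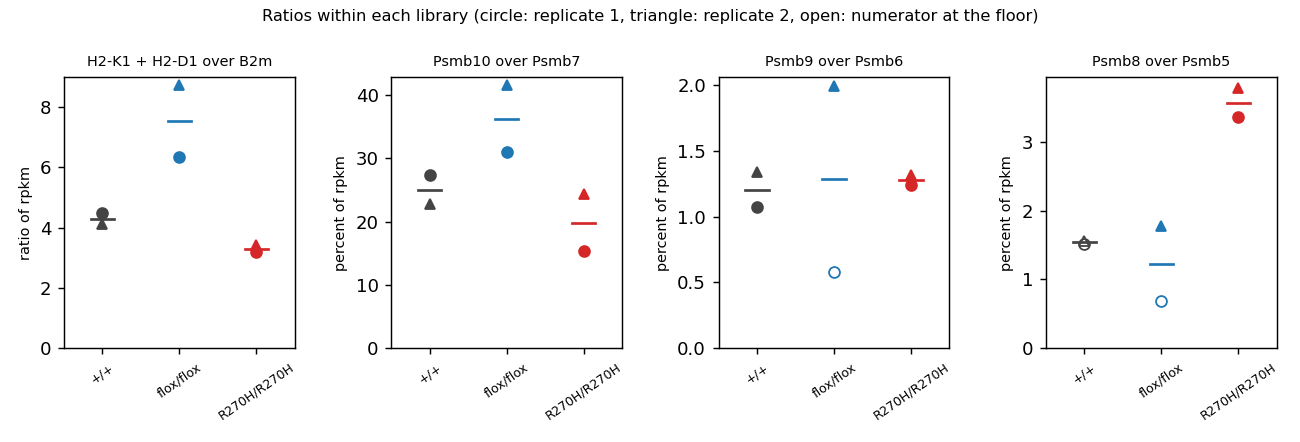
Ratios of rpkm values within each library, by Trp53 genotype, with replicate 1 as circles, replicate 2 as triangles and the mean as a line; open symbols have a numerator at the floor and are upper limits. The heavy to light chain ratio and the share of Psmb10 are highest in flox/flox, and the share of Psmb8 is highest in R270H/R270H.

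Nlrc5 (chr8:94434356-94527272, plus strand) was listed at 1 rpkm in every library, so that no genotype could be compared. On its longest transcript 1 rpkm is about 356 reads at the estimated depth. H2-K1 and H2-D1, known targets of the Nlrc5 protein, were thus at 73.6 to 177 rpkm in libraries in which Nlrc5 was not detectable above the floor.

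The other genes of the pathway were 56 genes in 5 classes, class II among them as a contrast, of which 54 were in the table and 37 entered the main test. In R270H/R270H against +/+, 3 of the 37 were called higher (H2-Q10, H2-Q5 and Rfxank; 5.86% of all tested genes) and 0 lower (6.36% of all) by limma, with 7 higher and 1 lower (Erap1) at an unadjusted p under 0.05, which 32.0% of all tested genes had in either direction. In flox/flox against +/+, 3 were called higher (H2-Q10, Calr and Irf1; 4.38% of all) and 2 lower (H2-Q1 and H2-Q2; 6.9% of all). In R270H/R270H against flox/flox, 6 were called higher (H2-Q1, H2-Q2, H2-Q5, H2-Q10 and Rfx5 among them; 13.6% of all) and 2 lower (Irf1 and Rfxap; 11% of all). At an unadjusted limma p under 0.05, 9 of the 37 were higher and 3 lower in flox/flox against +/+ (34.7% of all in either direction). In R270H/R270H against flox/flox, 8 were higher and 10 lower at that level (42.5% of all in either direction). H2-Q5 and H2-Q7 passed the filter only through the R270H/R270H libraries, where they are highest on average. Their part in these counts and medians is thus no support for a direction. The median log2 difference of the 37 genes was 0.14, 0.21 and -0.02 in these comparisons.

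The other heavy chain genes are mostly nonclassical class I genes, and several of them differed in pattern from H2-K1 and H2-D1. Of 18 listed, 16 were in the table, 8 entered the test and 5 were at the floor throughout. H2-Q10, whose product is a secreted class I molecule, was at 4.36 and 4.09 rpkm in +/+, 8.66 and 7.63 rpkm in flox/flox and 17.78 and 21.02 rpkm in R270H/R270H, with no overlap between genotypes. It rose by 1.96 ± 0.13 (SE, log2) in R270H/R270H (limma adjusted p = 0.00367) and by 0.81 ± 0.13 in flox/flox (limma adjusted p = 0.0285), and the mutant genotypes differed by 1.16 ± 0.13 (limma adjusted p = 0.00779). H2-Q5 was at 1.30 and 1.83 rpkm in +/+, 1 and 2.45 rpkm in flox/flox and 5.53 and 7.55 rpkm in R270H/R270H, and since it entered the test through the R270H/R270H libraries alone, these levels are given as a description. H2-Q2 was at 8.45 and 9.29 rpkm in +/+, 2.78 and 3.12 rpkm in flox/flox and 9.54 and 10.6 rpkm in R270H/R270H. It fell by 1.32 on the log2 scale in flox/flox (SE 0.12, limma adjusted p = 0.0104) and did not differ by call in R270H/R270H against +/+ (0.17, limma adjusted p = 0.416). H2-Q1 was at 5.17 and 7.23 rpkm in +/+, 2.34 and 2.05 rpkm in flox/flox and 10.6 and 10.5 rpkm in R270H/R270H. Its difference between the mutant genotypes was 1.85 ± 0.17 (limma adjusted p = 0.00493), and that of flox/flox from +/+ was -1.16 ± 0.17 (limma adjusted p = 0.0242).

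Between R270H/R270H and flox/flox, 4 of these 8 heavy chain genes, H2-Q5 included, were called higher (13.6% of all tested genes) and 0 lower (11% of all), with 5 and 0 at an unadjusted p under 0.05 (42.5% of all in either direction), while H2-K1 and H2-D1 were called lower in the same comparison. The median of the 8 was 0.98 there, 0.63 in R270H/R270H against +/+ and 0.10 in flox/flox against +/+, with H2-Q5 and H2-Q7 included. Without R270H/R270H replicate 1 the differences of H2-Q1, H2-Q2 and H2-Q10 between the mutant genotypes were not called. Without R270H/R270H replicate 2 only that of H2-Q2 was. Leaving out either +/+ library also lost the call of H2-Q10 between the mutant genotypes. The calls of H2-Q1, H2-Q2 and H2-Q10 between flox/flox and +/+ were lost without any 1 of the +/+ and R270H/R270H libraries. The call of H2-Q10 in R270H/R270H against +/+ was lost without either +/+ library or R270H/R270H replicate 1. In these fits most genes called in the main fit lost their calls too. Under the alternatives the differences between the mutant genotypes lay between 1.79 and 2.27 for H2-Q1, 1.42 and 1.77 for H2-Q2, and 1.04 and 1.27 for H2-Q10. The H2-Q genes are near-identical in parts of their sequence, and their values are uncertain where reads fit several of them.

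**Figure D4:**
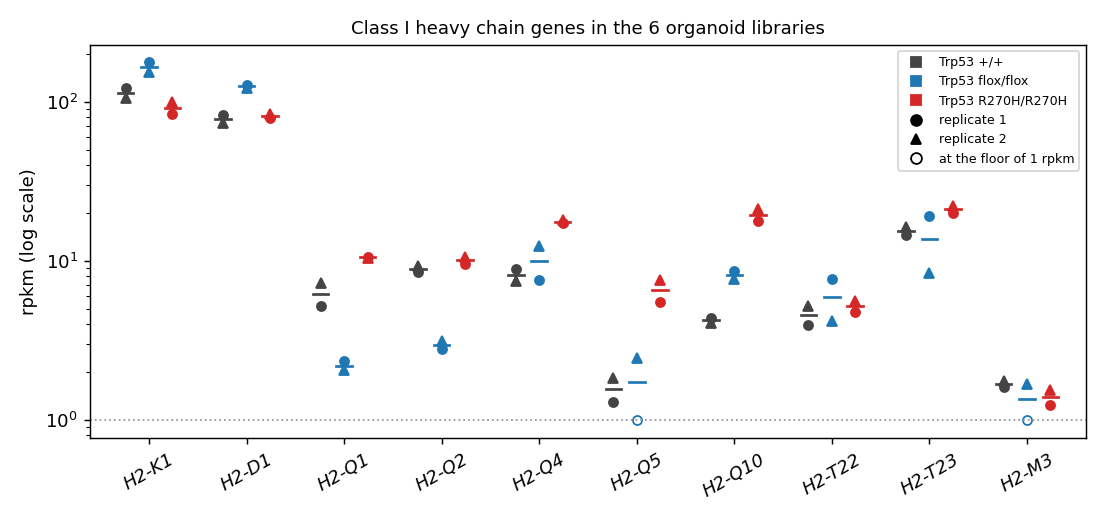
rpkm (log axis) of the heavy chain genes H2-K1 and H2-D1 and of 8 other class I heavy chain genes in each library, by Trp53 genotype, with replicate 1 as circles, replicate 2 as triangles and the mean as a line; open symbols are at the floor of 1 rpkm. H2-K1 and H2-D1 are highest in flox/flox, whereas H2-Q1, H2-Q2, H2-Q4, H2-Q5, H2-Q10 and H2-T23 are highest in R270H/R270H. H2-T22 and H2-M3 overlap between genotypes, and the mean of H2-T22 is highest in flox/flox.

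Among the 9 loading and trimming genes Calr, which encodes the chaperone calreticulin, was at 360 and 328 rpkm in +/+, 561 and 486 rpkm in flox/flox and 423 and 394 rpkm in R270H/R270H. It was called higher in flox/flox than in +/+ by 0.60 ± 0.13 (SE; limma adjusted p = 0.0487), a call lost with the filter of 1 rpkm (0.0521). The call was also lost on leaving out any 1 of the +/+ and R270H/R270H libraries, with differences between 0.53 and 0.67. In those fits most genes called in the main fit lost their calls too. No other gene of this class was called in any comparison. None of the 7 proteasome genes was called by limma, although at an unadjusted p under 0.05 Psmb5 and Psmb6 were higher in flox/flox than in +/+ and Psmb5, Psmb6 and Psme1 lower in R270H/R270H than in flox/flox.

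Of 13 tested regulators, Irf1, an interferon-induced transcription factor of class I genes, had both flox/flox libraries highest and both R270H/R270H libraries lowest of the 6. So did Irf2, which was not called in any comparison. Among all tested genes, 19.9% had both flox/flox libraries highest and 18.7% had both R270H/R270H libraries lowest. Other regulators, Rfx5 and Rfxank among them, had both R270H/R270H libraries highest (26.5% of all). Irf1 was at 11.2 and 9.27 rpkm in +/+, 16.74 and 16.95 rpkm in flox/flox and 8.05 and 8.67 rpkm in R270H/R270H. It was higher in flox/flox than in +/+ by 0.68 ± 0.12 (SE; limma adjusted p = 0.0344) and lower in R270H/R270H than in flox/flox by a difference of -0.93 ± 0.12 (limma adjusted p = 0.0111).

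The subunits of the RFX complex, which binds class I and class II promoters, also differed in direction. Rfxank was at 5.45 and 5.21 rpkm in +/+, 10.7 and 6.97 rpkm in flox/flox and 12.4 and 12.6 rpkm in R270H/R270H, and was higher in R270H/R270H than in +/+ by 1.10 ± 0.20 (SE; limma adjusted p = 0.0305). Rfx5 was at 7.56 and 7.11 rpkm in +/+, 3.82 and 5.10 rpkm in flox/flox and 7.72 and 8.45 rpkm in R270H/R270H, and was higher in R270H/R270H than in flox/flox by 0.74 ± 0.15 (limma adjusted p = 0.0281). Rfxap was at 4.59 and 3.69 rpkm in +/+, 6.09 and 6.27 rpkm in flox/flox and 3.90 and 3.93 rpkm in R270H/R270H, and was lower in R270H/R270H than in flox/flox by a difference of -0.55 ± 0.14 (limma adjusted p = 0.0430). For these 3 genes and for Irf1, each call was lost on leaving out any 1 of the 4 +/+ and R270H/R270H libraries. In those fits most genes called in the main fit lost their calls too.

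All 7 genes of the class II list were under 4 rpkm. Ciita, the class II transactivator, H2-Aa, H2-Ab1, H2-Eb1 and H2-DMb1 were at the floor in all 6 libraries, and Cd74, the invariant chain, reached 2.18 rpkm in flox/flox replicate 2. The organoids thus carried H2-K1 and H2-D1 RNA at high levels and class II RNA at or near the floor.

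The 5 genes whose centred log2 profile over the 6 libraries was closest to the mean profile of the tested class I presentation genes were Akt1, Pigs, 1600002H07Rik, Aph1a and Wdr18. Their root mean square differences from it were 0.01, 0.03, 0.04, 0.04 and 0.05 on the log2 scale. Akt1 was at 90.9 and 83 rpkm in +/+, 126 and 114 rpkm in flox/flox and 79.0 and 91.9 rpkm in R270H/R270H. The likeness is given as a description over 6 libraries.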

How the data were processed

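The authors prepared stranded poly(A) libraries (2 mice per genotype), sequenced them on an Illumina HiSeq, mapped reads to mm10 and calculated rpkm with StrandNGS. The version, annotation and read filters are not given in the sources used here. The deposited table holds these rpkm values, with 1 as the lowest value, which was taken as a floor for everything under it. It has 0 other per-sample columns.

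The 10042 genes that reached 4 rpkm in any library were fitted on log2(rpkm + 1), pseudocount 1, with limma 3.58.1 (lmFit, eBayes with trend; R 4.3.3) for all 6 libraries and genotype only, two-sided, with Benjamini-Hochberg adjustment over all genes. The spread is pooled over genotypes, because 2 libraries against 2 allow no exact permutation p below 0.333. The series' design text gives 2 mice per genotype, with organoids made from each. Values below the filter were fitted with all 12412 genes above 1 rpkm. Ratios, motifs and figures used Python 3.11.15 and pandas 2.3.3. Gene positions are from GENCODE M21 (GRCm38), which has all 10 genes, and promoters from RefSeq.

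The 10 genes and all lists were chosen with earlier results of these data known. Named were the 10 genes, Trp53, other pathway genes called in at least 1 comparison, Psmb5, Psmb6, Psmb7 and the 5 most alike genes, except 1 pathway gene that is not reported here; marker genes, genes at the floor, Erap1, Psme1, Irf2 and H2-Q7 were named after their values were seen. Alternatives were pseudocounts of 0.1 and none, a filter of 1 rpkm or none, median-of-ratios scaling, a fit of only the genotypes compared, no trend, weights per genotype, a replicate block and each library left out. The fits were tested on simulated data.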

Additional observations from a re-analysis of the deposited data

How the results depend on the processing

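No value called in the main fit changed sign under an alternative, and no value called under an alternative had the opposite sign to its main fit. Another 17 alternative values, called neither in the main fit nor in that alternative, changed sign or fell to 0. Alternatives could differ in sign from each other. B2m in flox/flox against +/+ was -0.48 without flox/flox replicate 1 and 0.10 without flox/flox replicate 2. The called differences of H2-K1, H2-D1 and Psmb10 kept their directions, but their calls were lost in fits of only the genotypes compared and with weights for each genotype; the cause was not tested. In fits of only the genotypes compared, the called class I presentation genes numbered 1 (B2m) for R270H/R270H against +/+, 0 for flox/flox against +/+ and 0 for R270H/R270H against flox/flox, in place of 0, 2 and 3, and the other pathway genes called numbered 14, 0 and 3 in place of 3, 5 and 8. With weights for each genotype these counts were 2 (B2m and H2-K1), 0 and 0, and 17, 0 and 1. All genes called were 5721, 47 and 378 in fits of only the genotypes compared and 5987, 150 and 534 with weights, in place of 1227, 1133 and 2469. With a filter of 1 rpkm, 2 class I presentation genes were called in R270H/R270H against +/+, and the median of the tested ones was 0.22 in flox/flox against +/+ and -0.19 in R270H/R270H against flox/flox. Pseudocounts of 0.1 or none left 1 called in flox/flox against +/+. Leaving out a library changed the calls over all tested genes too, from very few of them to most of them. The counts of called genes in those fits moved with this and are no result about class I presentation or other pathway genes. Leaving out each library in turn gave 0 to 1, 0 to 4 and 0 to 5 called class I presentation genes and 0 to 14, 0 to 23 and 0 to 31 other pathway genes, and medians of -0.01 to 0.10, 0.44 to 0.63 and -0.66 to -0.58. With the replicate number as a block, 0 class I presentation genes were called in flox/flox against +/+, and 1 and 5 pathway genes in flox/flox against +/+ and R270H/R270H against flox/flox; same-numbered libraries of different mice did not deviate together (correlations 0.117, -0.291 and -0.196), so the number gives no pairing. Without any filter no usable fit was had, because 23760 constant genes at the floor entered it. For the 5 genes of the main test, 36 of 210 alternative values lost a call and 10 gained one. In the fit above 1 rpkm, Tap1 lost its calls under 6 and 7 and Psmb8 its call under 5 of 13 alternatives added after the data were seen. Values under 1 rpkm are unknown, which limits Tap1, Tap2, Psmb8, Psmb9 and Nlrc5, and with 2 libraries per genotype no single library can be set aside.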
